A study of Mus musculus and Rattus norvegicus with 53 samples.

Results

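The genes described here are 10 members of the Hippo pathway, taken by symbol from the 24016 genes of the mouse count tables. They are the coactivators Yap1 and Wwtr1 (which encodes TAZ), the DNA-binding factors Tead1, Tead2, Tead3 and Tead4, the kinases Lats1 and Lats2, and the targets Amotl2 and Ankrd1. They were followed in Schwann cells (SCs) sorted by FACS from the sciatic nerves of male and female mice aged 6 to 8 weeks, in which P0A-Cre, a driver active in the neural crest lineage, turns on tdTomato from the Rosa26 locus. All groups carried both alleles, no group carried a deletion, and the sciatic nerve was transected on 1 side. Intact SCs (iSCs) came from the contralateral nerve, distal SCs (dSCs) from the stump beyond the cut, and bridge SCs (bSCs) from the tissue that fills the gap. In the pooled experiment, nerves of 3 mice were combined in each library and there were 4 libraries each of iSCs, dSCs and bSCs, collected 6 days after transection. In the single-nerve experiment there were 5 iSC libraries, 3 dSC libraries on each of day 1, day 2, day 4, day 6, day 8 and day 10, and 3 bSC libraries on each day from day 4 on.

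In the Hippo pathway, the LATS kinases phosphorylate YAP and TAZ and keep them in the cytoplasm. Unphosphorylated YAP and TAZ enter the nucleus and bind TEAD factors, which recognise a short DNA motif and turn on targets such as Amotl2, Ankrd1, Cyr61 and Ctgf. LATS2 and AMOTL2 restrain YAP and TAZ in turn, so that both are part of the pathway's feedback. In SCs, YAP and TAZ acting with TEAD1 are known for their role in myelination. The libraries measure mRNA, and neither the phosphorylation of YAP and TAZ nor their location in the cell was measured.

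Levels are given in CPM, the read count divided by the library's total on genes and rescaled by TMM, which aligns libraries on the bulk of their genes. The pooled libraries held 11435463 to 22617054 reads on genes, and the single-nerve libraries 9240883 to 22426128. Fewer genes were detected in pooled bSCs, with 11735 to 12606 genes, than in dSCs, with 12432 to 14715, or iSCs, with 13600 to 14987. Among the single nerves, 4 libraries had the fewest genes, 10042 to 11138, namely iSC replicates 0 and 1, dSC day 1 replicate 1 and dSC day 2 replicate 0. The dSC and bSC libraries labelled replicate 1 of day 4 were nearly the same, with a chi-square per degree of freedom of 3.96 between their counts, against at least 47.9 between any other libraries and at most 1.32 between lanes of a library. The single-nerve fits were also run without the 4 libraries of fewest genes and without the nearly identical libraries. The levels, ranges, separations, shares, pair counts and likenesses given below include all of these libraries. All 5 SC markers examined (Sox10, S100b, Erbb3, Cdh19 and Ngfr) had counts in every group, but so had fibroblast and macrophage markers. The 7 fibroblast markers summed to 8771 to 48860 CPM in pooled iSCs, 29195 to 42657 in dSCs and 13146 to 26563 in bSCs, and the 8 macrophage markers to 148 to 4100, 7311 to 11862 and 1752 to 5174 CPM. In such sorted bulk samples, fewer cells of a type and less RNA per cell cannot be told apart.

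TEAD factors bind the motif CATTCC, read as GGAATG on the other strand. RefSeq promoters (GRCm38.p6, the 250 bases before each annotated start) were found for 8 of the 10 members, and 5 of these 8 (62.5%) held the motif on either strand before at least 1 start, against 14.4% of 27025 genes. The 5 were Yap1, Wwtr1, Tead3, Amotl2 and Ankrd1. The promoters of both targets among the members are given here with that of Cyr61 (Ccn1 in RefSeq), a secreted matrix protein and a standard target, because these transcripts serve as readouts of YAP and TAZ. Capitals mark the motif, each sequence reads 5′ to 3′ on the gene's strand, and a match of letters is a description and not a binding site.
Ankrd1, chr19:36119845-36120094, minus strand: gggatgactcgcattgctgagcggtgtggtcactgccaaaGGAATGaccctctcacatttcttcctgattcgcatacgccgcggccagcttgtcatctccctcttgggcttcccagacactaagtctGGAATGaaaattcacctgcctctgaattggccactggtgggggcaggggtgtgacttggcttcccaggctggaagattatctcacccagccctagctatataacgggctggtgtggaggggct
Amotl2, chr9:102717554-102717803, plus strand: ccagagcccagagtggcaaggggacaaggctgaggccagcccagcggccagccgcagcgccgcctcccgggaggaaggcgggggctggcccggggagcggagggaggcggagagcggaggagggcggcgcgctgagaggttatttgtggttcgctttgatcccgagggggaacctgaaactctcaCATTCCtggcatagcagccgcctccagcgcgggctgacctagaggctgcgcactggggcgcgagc
Ccn1, chr3:145649986-145650235, minus strand: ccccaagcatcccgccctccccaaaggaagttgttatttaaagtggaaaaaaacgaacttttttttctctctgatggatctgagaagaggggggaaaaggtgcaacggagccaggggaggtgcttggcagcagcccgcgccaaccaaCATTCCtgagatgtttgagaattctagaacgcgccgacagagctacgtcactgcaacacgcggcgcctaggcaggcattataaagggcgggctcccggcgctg
The motif began 210 and 123 bases before the start of Ankrd1, 65 bases before that of Amotl2 and 103 bases before that of Ccn1. At least 2 copies were found in 2 of the 8 members, Ankrd1 and Tead3, against 1.18% of all genes.

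In the pooled nerves, Lats2 was the member that differed between regions past the threshold of edgeR's quasi-likelihood test (adjusted p under 0.05 over all genes). It fell in bSCs against iSCs, where 14.7% of all genes passed, and against dSCs, where 5.43% passed. The call against dSCs (adjusted p = 0.0379) was lost with a replicate block (0.0850), with only bSCs and dSCs in the fit (0.0853) and without 9 of the 12 libraries, and the single-nerve log2 fold change of day 6 was 0.90. Amotl2 was lower in every injured library than in any iSC library, as were 9.41% of genes in dSCs and 14.5% in bSCs. Tead3 was likewise lower in every bSC library, and Tead2 was higher in every bSC library than in any iSC library, as were 10.5% of genes. None of these 3 passed the test. The coactivators Yap1 and Wwtr1, the factor Tead1, and Lats1 did not pass it in any comparison. Ankrd1 was at 0 in most libraries. In the single nerves none of the 6 members that could be tested passed, in any region or on any day. There 0.112% to 10.1% of all genes tested passed in the averaged comparisons, and 0% to 4.74% on single days.

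**Figure D1:**
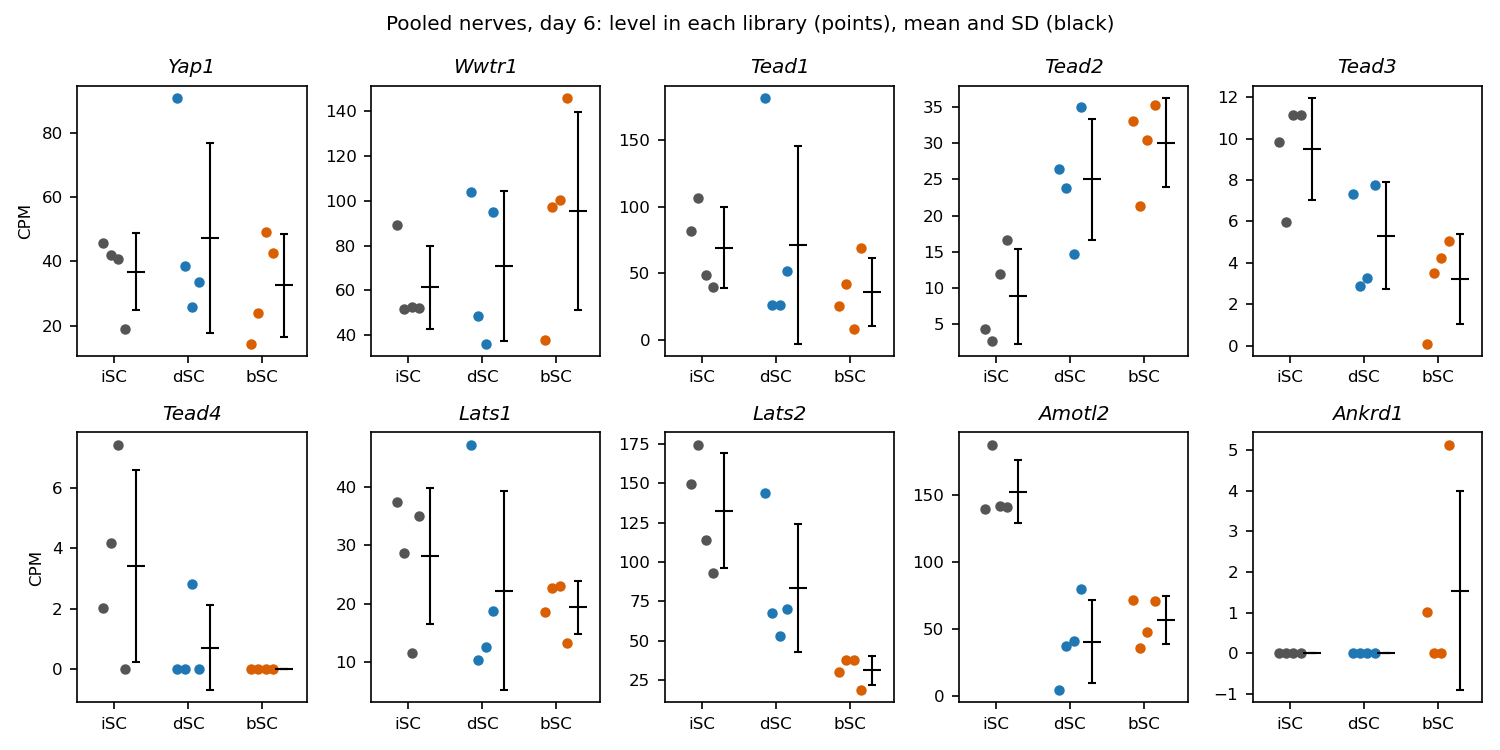
Level of each member in the 12 pooled-nerve libraries of day 6, in CPM on the y axis (a separate linear scale for each gene); points are libraries, and black marks are the mean and SD of each group of 4. Lats2 is at 18.7 to 37.8 CPM in the bSC libraries, below every iSC and dSC library, and the iSC libraries of Amotl2, at 139 to 187 CPM, lie above all others.

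The question put to the pooled libraries is how SCs of the distal stump and of the wound differ from those of the uninjured nerve and from each other. For the coactivators, the levels of the regions overlapped. Yap1 stood at 45.7, 41.9, 40.7 and 19.1 CPM in the iSC libraries, at 90.7, 38.7, 25.8 and 33.6 CPM in dSCs and at 14.4, 24.1, 49.1 and 42.6 CPM in bSCs. The highest value was that of dSC replicate 1, and without it the remaining dSC libraries lay inside the iSC range. The Yap1 log2 fold change was 0.36 ± 0.50 (SE) in dSCs against iSCs (adjusted p = 0.847), and without dSC replicate 1 it was -0.17. In bSCs it was -0.18 ± 0.50 against iSCs (adjusted p = 0.866), and -0.54 ± 0.50 against dSCs (adjusted p = 0.607). The 95% interval of that last difference ran from -1.61 to 0.54, and without dSC replicate 1 the difference was -0.0086.

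Wwtr1 stood at 89.4, 51.9, 52.4 and 51.9 CPM in iSCs, at 104, 48.8, 36.2 and 94.9 CPM in dSCs and at 37.9, 97.4, 100.4 and 146 CPM in bSCs. In bSCs 3 of 4 libraries were above all iSC libraries, while bSC replicate 1 was below all of them. The log2 fold change was 0.64 ± 0.43 in bSCs against iSCs (adjusted p = 0.375) and 0.43 ± 0.43 against dSCs (adjusted p = 0.634). Compared per kilobase of exon, Wwtr1 was above Yap1 in all 12 pooled libraries, with a ratio of 2.22 to 7.84 (median 3.88), and in all 35 single-nerve libraries, with a ratio of 1.63 to 201 (median 4.99). The mean level per length over the pooled libraries was 15.9 CPM per kb for Wwtr1 and 4.20 for Yap1.

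Over the single-nerve time course, Yap1 varied more within groups than between them. The iSC libraries ranged from 6.40 CPM, in a library of few genes, to 56.3 CPM, with a median of 35.5. The lowest means in dSCs were those of day 1, at 19.0 ± 12.7 CPM (SD, n = 3), and day 2, at 19.6 ± 16.0, and the highest was that of day 6, at 63.4 ± 46.9, from libraries at 99.5, 10.4 and 80.3 CPM. Days 1 and 2 each held a library of few genes, at 4.34 and 1.29 CPM. The remaining libraries stood at 26.3 and 26.4 CPM on day 1 and at 27.1 and 30.5 CPM on day 2. Ordered by their means as days 1, 2, 10, 8, 4 and 6, neighbouring days overlapped except days 10 and 8, where the libraries ended at 35.1 CPM and began at 36.4 CPM. A test of any difference among the 6 dSC days gave an unadjusted p of 0.379 for Yap1 in edgeR (adjusted p = 1.00), and an adjusted p of at least 0.900 for each tested member, where 0.237% of genes were called. In bSCs the means of days 4, 6, 8 and 10 were 31.9 ± 13.9, 62.0 ± 14.7, 39.7 ± 7.95 and 21.1 ± 26.8 CPM. The last came from 11.1, 51.5 and 0.705 CPM, a spread wider than that of any other bSC day.

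Wwtr1 was the steadiest member. It had at least 525 counts in each of the 35 single-nerve libraries, and its group means lay between 70.0 ± 16.2 CPM in bSCs of day 10 and 132 ± 66.2 CPM in dSCs of day 6. The iSC libraries ranged from 78.9 to 154 CPM, with a mean of 119 ± 29.7 (n = 5). Against these, bSCs of day 10, at 52.4, 84.4 and 73.3 CPM, had a log2 fold change of -0.77 ± 0.38 (edgeR, unadjusted p = 0.0498, adjusted p = 0.346). Averaged over days 4 to 10, Wwtr1 in bSCs differed from dSCs by -0.23 ± 0.20 on the log2 scale (adjusted p = 0.923), with a 95% interval from -0.64 to 0.19.

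Among the TEAD factors, Tead1 is the partner most often named for SCs. It stood at 82.3, 107, 49.0 and 39.9 CPM in pooled iSCs, at 182, 26.1, 26.6 and 51.8 CPM in dSCs and at 25.6, 41.9, 8.34 and 68.8 CPM in bSCs. The dSC mean of 71.6 ± 74.4 CPM rested on replicate 1, the next dSC library being at 51.8 CPM. In dSCs against iSCs the log2 fold change was 0.04 ± 0.68 (adjusted p = 0.991), and -0.99 without that library. In bSCs it was -0.94 ± 0.69 against iSCs (adjusted p = 0.425) and -0.98 ± 0.69 against dSCs (adjusted p = 0.459), the second becoming 0.052 without dSC replicate 1. That library was also the highest dSC library for Yap1, Wwtr1, Lats1 and Lats2 and the lowest for Amotl2.

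Tead2 had its lowest mean of the pooled regions in iSCs, but no comparison passed the test. Its levels were 4.29, 2.59, 11.9 and 16.6 CPM in pooled iSCs, 26.5, 23.8, 14.6 and 35.1 CPM in dSCs, and 33.1, 21.4, 30.5 and 35.4 CPM in bSCs. Every bSC library was above every iSC library, which held for 10.5% of the 13751 genes tested, while 1 dSC library lay inside the iSC range. The log2 fold change was 1.498 ± 0.61 in dSCs (adjusted p = 0.215) and 1.77 ± 0.61 in bSCs (adjusted p = 0.0700), and 0.27 ± 0.59 between bSCs and dSCs (adjusted p = 0.855). In bSCs against iSCs, DESeq2, which called 22.9% of genes, gave an adjusted p of 0.0184 and the other alternative fits up to 0.125, and without iSC replicate 5, the highest iSC library, it was 0.0320 with a log2 fold change of 2.29. Tead2 overlaps Cd37, a leukocyte gene on the opposite strand (chr7:52471123-52489005 in mm9 is the Tead2 locus), and Smart-seq2 does not keep strand. Cd37 stood at 2.03 to 18.5 CPM in pooled iSCs, 23.2 to 49.9 in dSCs and 3.64 to 34.6 in bSCs, and its part in the Tead2 counts was not tested.

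Over all 12 pooled libraries, Tead3 and Tead4 had the lowest means of the 4 factors, at 6.01 and 1.37 CPM. In iSCs alone, the Tead3 mean of 9.51 CPM was not below that of Tead2, at 8.85 CPM. Tead3 stood at 9.83, 5.95, 11.1 and 11.1 CPM in iSCs, at 7.34, 2.89, 3.25 and 7.76 CPM in dSCs and at 0.0897, 3.51, 4.21 and 5.04 CPM in bSCs. All bSC libraries were below all iSC libraries, as for 14.5% of the genes tested, with a log2 fold change of -1.56 ± 1.06 (adjusted p = 0.378). Tead4 was detected in 3 of 4 iSC libraries, at 2.03, 4.17 and 7.42 CPM, in 1 of 4 dSC libraries, at 2.81 CPM (38 counts), and in none of the bSC libraries. A count of 3, used as an approximate upper limit where the count was 0, was worth 0.135 to 0.258 CPM in these libraries, for counting error only. The fitted change of Tead4 is not given because it rests on zeros, and its adjusted p was 0.0794 in bSCs against iSCs, 0.197 in bSCs against dSCs and 0.766 in dSCs against iSCs.

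Set side by side per kilobase of exon, the 4 factors had similar mean sums in the pooled regions, and their makeup differed. The sum was 11.2 ± 1.21 CPM per kb (SD, n = 4) in iSCs, 13.1 ± 7.56 in dSCs and 10.4 ± 3.01 in bSCs. Tead2 made up 17.95% ± 14.7 of that sum in iSCs, 46.5% ± 16.7 in dSCs and 64.0% ± 15.6 in bSCs. The share ran from 4.43% to 36.9% in the iSC libraries and from 50.3% to 79.4% in the bSC libraries, so that these did not overlap, while the dSC libraries, at 24.1% to 63.1%, overlapped both. Tead1 made up 54.2% ± 19.7, 41.1% ± 18.6 and 28.9% ± 15.4 in the same order. In the single nerves the Tead2 share of iSCs, at 1.79% to 67.4%, overlapped both injured regions. Both ends of that range were libraries of few genes, and the remaining iSC libraries stood at 32.4%, 25.9% and 9.28%. Over days 4 to 10 the share stood at 26.0% to 66.5% in dSCs and 25.9% to 71.0% in bSCs. The lowest value of each injured region was that of the nearly identical libraries of day 4. There the sum in dSCs of day 6, at 15.2 to 25.6 CPM per kb, lay above that of every iSC library, at 2.48 to 11.1. These sums and shares are a description of the libraries and were not tested.

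**Figure D2:**
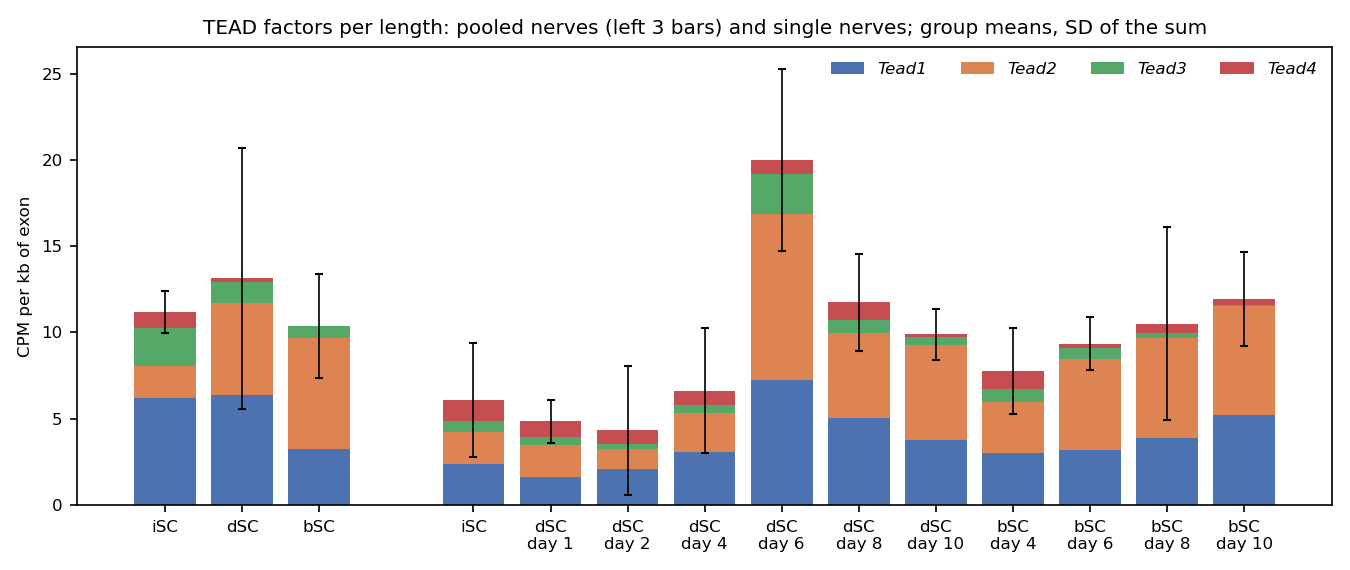
Mean level of the TEAD factors in CPM per kb of exon (y axis, linear from 0), stacked by factor, for the pooled groups (n = 4) and the single-nerve groups (n = 5 for iSCs and n = 3 for the others); black bars are the SD of the sum over libraries. Among the pooled nerves the Tead2 band is narrow in iSCs and is the widest band in bSCs, and dSCs of day 6 have the tallest single-nerve bar.

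Tead2 in the single nerves had too few counts in too many libraries for the filter of at least 100 counts in 85% of libraries. Its levels were 15.2, 0.206, 16.8, 8.95 and 1.98 CPM in iSCs, and on days 1 and 2 the dSC libraries ranged from 0.215 to 13.4 CPM. On day 6 the dSC libraries stood at 55.6, 47.2 and 32.2 CPM and on day 10 at 27.6, 22.4 and 27.0 CPM, all above every iSC library. The bSC libraries were above every iSC library on day 6, at 24.05, 29.0 and 21.0 CPM, on day 8, at 21.5, 20.3 and 39.2 CPM, and on day 10, at 28.0, 26.4 and 34.7 CPM. Of the tested genes, the share with such an upward separation was 6.48% and 4.80% on days 6 and 10 in dSCs, and 7.77%, 4.50% and 5.58% on days 6, 8 and 10 in bSCs. With edgeR's own filter, which keeps Tead2, the log2 fold change against iSCs over days 4 to 10 was 1.46 ± 0.67 in dSCs (adjusted p = 0.211) and 1.49 ± 0.68 in bSCs (adjusted p = 0.170). On day 6 it was 2.41 ± 0.84 in dSCs (adjusted p = 0.215). Leaving out the 4 libraries with the fewest genes, an alternative chosen after seeing the data that called 2.53% of genes, it was 2.25 with an adjusted p of 0.0435 on that day, and with no filter on low counts it was 2.42 with an adjusted p of 0.266. Cd37 in the same dSC libraries of day 6 was at 37.9, 47.2 and 7.15 CPM, and at 0 to 20.8 CPM in iSCs.

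Single-nerve Tead3 was higher in dSCs of day 6, at 12.03, 11.8 and 6.72 CPM, than in every iSC library, at 1.40 to 5.36 CPM, as for 6.48% of tested genes. Its bSC libraries were below the dSC libraries of the same day on day 6, at 1.47 to 4.96 CPM, on day 8, at 0.338 to 2.66 CPM against 2.88 to 3.75, and on day 10, at 0 to 0.672 CPM against 1.11 to 2.69. On day 10 all bSC libraries, with 0 to 8 counts, were also below all iSC libraries, as for 3.67% of tested genes. The separation from dSCs was found for 10.2%, 5.05% and 6.61% of tested genes on these days. Tead3 itself did not pass the count filter of the tested genes, so these shares describe genes with more counts. With edgeR's filter, the bSC to dSC difference averaged over days 4 to 10 was -1.30 ± 0.94 on the log2 scale (adjusted p = 0.838). Among the 10 pairs of libraries from the same animal, Tead3 was lower in bSCs in 8, higher in 1 and equal in the other. The equal pair, at 0 CPM in both regions, was that of the nearly identical libraries of day 4.

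Tead1 in single dSCs stood at 9.36, 12.3 and 32.5 CPM on day 1, and its highest group mean, 81.3 ± 48.6 CPM, was that of day 6, from 96.3, 27.0 and 121 CPM. In iSCs it ranged from 13.6 to 49.0 CPM. On day 6 its log2 fold change was 1.61 ± 0.80 (adjusted p = 0.347), and over days 4 to 10 it was 0.93 ± 0.63 in dSCs (adjusted p = 0.388) and 0.65 ± 0.62 in bSCs (adjusted p = 0.577). Tead4 was at 0 in 2 of 5 iSC libraries and at 1.99 to 13.5 CPM in the others, and no injured group stood apart from that range. The 3 dSC libraries of day 1 lay closest together, at 3.34, 3.53 and 3.21 CPM.

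Of the kinases in the pooled nerves, Lats2 fell in bSCs. Lats1 did not pass the test, and the difference between the changes of these genes was not tested. Lats2 stood at 149, 174, 114 and 92.8 CPM in iSCs (mean 133 ± 36.3), at 144, 67.4, 52.9 and 69.9 CPM in dSCs (83.5 ± 40.8) and at 30.5, 37.8, 37.8 and 18.7 CPM in bSCs (31.2 ± 9.05). The bSC libraries were below all libraries of the other regions, and the dSC libraries overlapped iSCs through replicate 1. Lats2 was 4.26-fold lower in bSCs than in iSCs (log2 fold change -2.09 ± 0.37, edgeR adjusted p = 0.00229, n = 4 per group). It was the 1 member of 9 tested that was called in this comparison, in which 14.7% of all genes were called and 7.46% were called lower. The call held in each of 6 alternative fits, with adjusted p from 1.79e-06 to 0.0163, and without each library in turn, with adjusted p from 0.00118 to 0.00952.

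Against dSCs, Lats2 was 2.68-fold lower in bSCs (log2 fold change -1.42 ± 0.36, edgeR adjusted p = 0.0379), again the 1 member called of 9, where 5.43% of all genes were called and 3.11% called lower. All bSC libraries were below all dSC libraries, as for 8.62% of genes. This call lay near the threshold. In a fit with a replicate block for the pool, the log2 fold change was -1.39 with an adjusted p of 0.0850, and with only bSCs and dSCs in the fit it was -1.42 with an adjusted p of 0.0853; over the 6 alternative fits adjusted p ranged from 0.00371 to 0.0853. It was lost without 9 of the 12 libraries. Without dSC replicates 1, 2 or 5 the adjusted p was 0.102, 0.0549 and 0.0687, without bSC replicates 1, 2, 3 or 5 it was 0.0656, 0.0555, 0.0633 and 0.0925, and without iSC replicates 1 or 4 it was 0.0623 and 0.0559. The log2 fold change stayed between -1.02, without dSC replicate 1, and -1.59. In dSCs against iSCs it was -0.67 ± 0.35 (adjusted p = 0.397).

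Markers of other cells moved along with the fall of Lats2. Of the 7 fibroblast markers, 3 were called lower in bSCs against iSCs and 3 against dSCs, and 0 higher. Of the 3 perineurial markers, which summed to 285 to 537 CPM in iSCs, 127 to 563 in dSCs and 102 to 360 in bSCs, 2 were called lower in bSCs against iSCs, and Ntn4 was at 0 in every pooled bSC library. Of the 7 mural markers 1 was called lower in bSCs against each of the others, and of the 6 endothelial markers 1 was called higher against dSCs. Of the 5 SC markers, 3 were called lower and 1 higher in bSCs against iSCs, and 0 were called against dSCs. Their part in the result was not tested. The Lats2 locus (chr14:58260914-58377225, minus strand, mm9) also overlaps the annotated Xpo4 gene on the same strand.

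Lats1 stood at 37.4, 28.6, 11.5 and 35.0 CPM in iSCs, at 47.2, 10.4, 12.6 and 18.7 CPM in dSCs and at 18.5, 22.8, 22.9 and 13.2 CPM in bSCs. The regions overlapped, and the log2 fold change was -0.34 ± 0.57 in dSCs against iSCs, -0.54 ± 0.57 in bSCs against iSCs and -0.20 ± 0.57 in bSCs against dSCs (adjusted p = 0.885, 0.612 and 0.891). The 95% interval of the bSC to iSC difference ran from -1.78 to 0.70. Both genes have exons of similar total length, and the mean over the pooled libraries was 11.3 CPM per kb for Lats2 and 3.18 for Lats1.

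**Figure D3:**
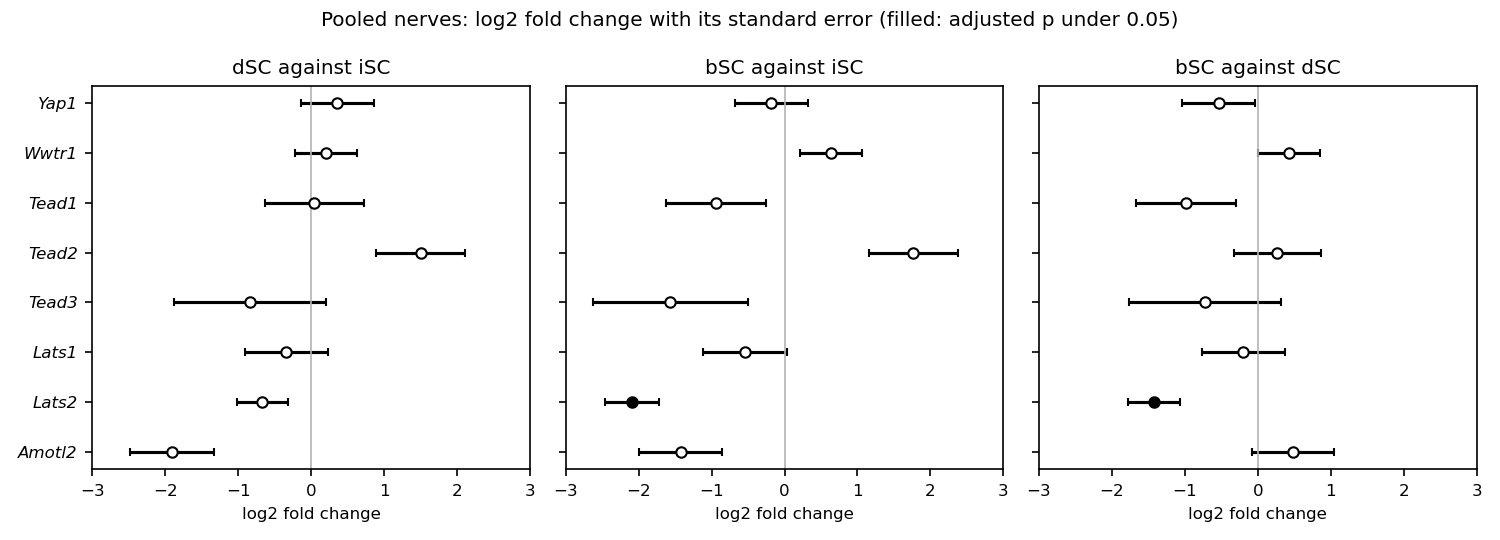
Log2 fold change (x axis) of the 8 members with enough counts in the 3 pooled comparisons, from edgeR's fit of all 12 libraries; bars are the standard error and filled points have an adjusted p under 0.05. The filled points are those of Lats2, at -2.09 in bSCs against iSCs and -1.42 in bSCs against dSCs, while Amotl2 in dSCs against iSCs, at -1.91, is open.

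Single-nerve Lats2 did not pass the test between bridge and distal stump. The iSC libraries stood at 36.5, 24.97, 88.6, 118 and 88.0 CPM. On day 6, the day of the pooled experiment, dSCs were at 50.2, 49.2 and 65.5 CPM and bSCs at 61.3, 139.7 and 107 CPM, so that the lowest bSC library lay inside the dSC range. In the 3 pairs from the same animal on that day Lats2 was higher in bSCs, by 0.28, 1.49 and 0.70 on the log2(CPM + 1) scale. Against dSCs, the log2 fold change of bSCs was 0.90 ± 0.56 on day 6 (adjusted p = 0.847) and -0.13 ± 0.28 averaged over days 4 to 10 (adjusted p = 0.978, 95% interval -0.70 to 0.43). A fit of all 47 libraries, which was not among the planned comparisons, took the day 6 difference between bSCs and dSCs in the pooled nerves minus that in the single nerves. It was -2.38 ± 0.73 for Lats2 (edgeR, unadjusted p = 0.00232, adjusted p = 0.528 over 15913 genes), in a comparison that called 0.00628% of genes. For the other members with a fitted value that difference had an adjusted p of at least 0.993. Among the 10 pairs of the same animal, Lats2 was lower in bSCs in 5 and higher in 5. Against iSCs, Lats2 differed by -0.06 ± 0.36 in dSCs and by -0.20 ± 0.36 in bSCs over days 4 to 10.

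Lats1 in the single nerves ranged from 0 to 48.4 CPM in iSCs, with the libraries of few genes at 0 and 4.54 CPM. Its highest group means were 45.8 ± 26.6 CPM in bSCs of day 10 and 43.8 ± 7.97 CPM in dSCs of day 8, and its lowest that of iSCs, at 20.7 ± 19.9 CPM. Over days 4 to 10 the log2 fold change was 0.53 ± 0.67 in dSCs and 0.67 ± 0.68 in bSCs against iSCs (adjusted p = 0.693 and 0.607), and without the libraries of few genes it was -0.14 and -0.0061.

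**Figure D4:**
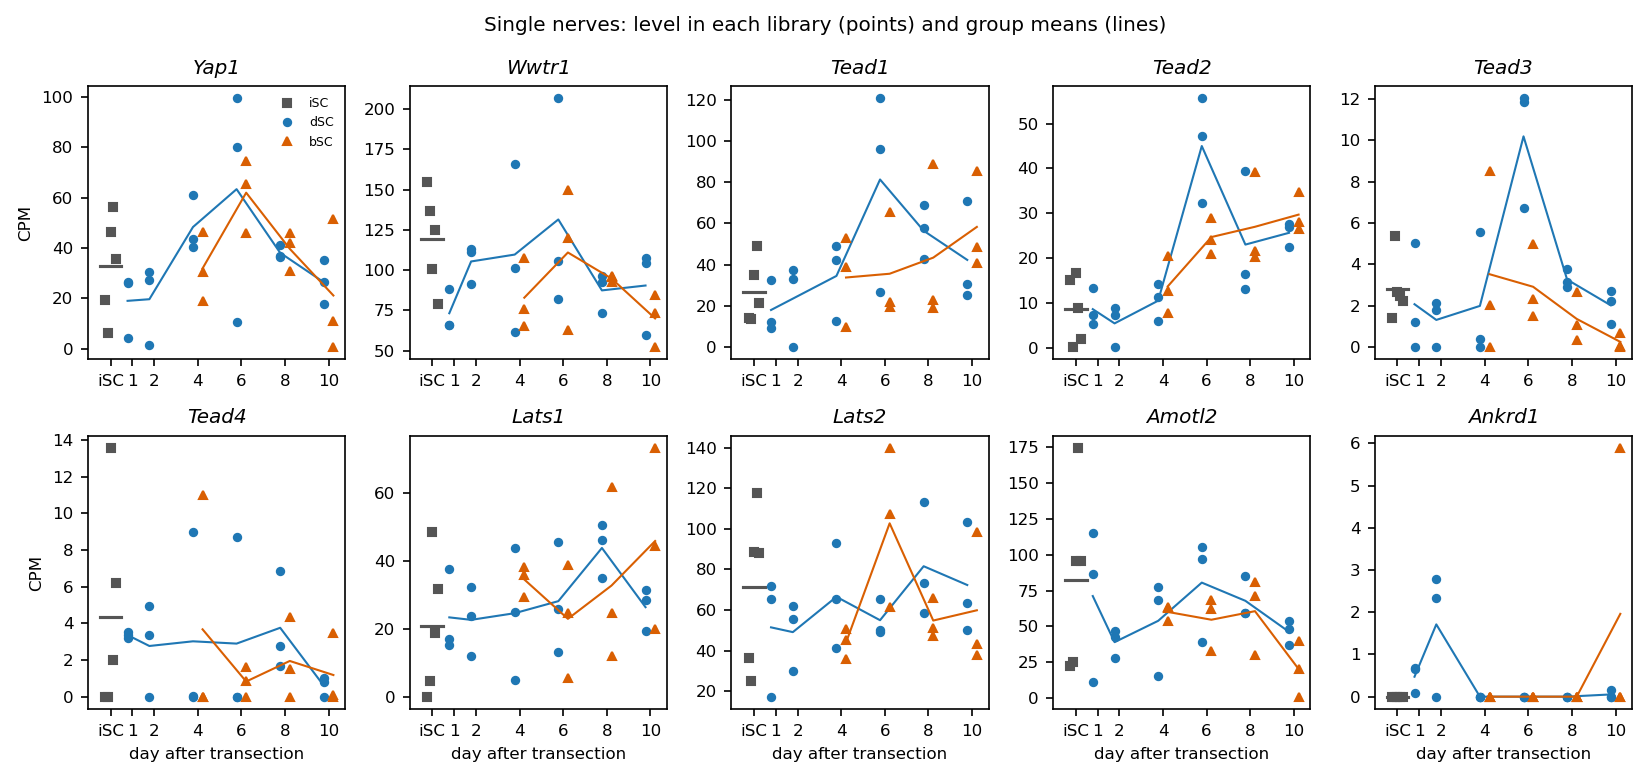
Level in CPM (y axis, a separate linear scale for each gene) in the 35 single-nerve libraries against day after transection; squares are iSCs, circles dSCs and triangles bSCs, and lines join group means. Groups overlap for most genes, the dSC circles of Tead2 and Tead3 on day 6 lie above the iSC squares, and the bSC triangles of Amotl2 on day 10 reach down to 1.13 CPM.

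Amotl2, which encodes a motin that binds YAP and TAZ and is induced by them, was highest in intact nerves. The pooled iSC libraries stood at 139, 187, 141 and 141 CPM (mean 152 ± 23.3), dSCs at 4.44, 37.4, 40.7 and 80.0 CPM (40.6 ± 30.9) and bSCs at 71.8, 36.1, 47.6 and 71.1 CPM (56.7 ± 17.7). All injured libraries were below all iSC libraries, a downward separation shown by 9.41% of genes in dSCs and 14.5% in bSCs. The log2 fold change was -1.91 ± 0.58 in dSCs (95% interval -3.15 to -0.66, edgeR unadjusted p = 0.0056, adjusted p = 0.0800) and -1.42 ± 0.57 in bSCs (adjusted p = 0.112). Neither passed the threshold. With dSCs, 0 of 9 members were called by edgeR, against 5.32% of all genes, 2 had an unadjusted p under 0.05 (Amotl2 and Tead2), and DESeq2 called 1, Amotl2, with an adjusted p of 0.0134, where it called 10.2% of genes.

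The spread of Amotl2 rested on dSC replicate 1, the library at 4.44 CPM. Without it, edgeR's adjusted p was 0.0382 in dSCs, with a log2 fold change of -1.53, and 0.0111 in bSCs, with -1.42. With only bSCs and iSCs in the fit the adjusted p in bSCs was 0.00943. The 6 alternative fits gave 0.0134 to 0.207 for dSCs, and 0.00943 to 0.252 for bSCs. Between bSCs and dSCs the difference was 0.48 ± 0.56 (adjusted p = 0.689).

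The single-nerve iSC libraries of Amotl2 were spread over 22.2, 25.4, 95.6, 174 and 95.8 CPM, the lowest being the libraries of few genes, and did not repeat the tight iSC group of the pooled nerves. In dSCs the group means ran from 39.1 ± 9.79 CPM on day 2 to 80.5 ± 36.0 on day 6, and all overlapped iSCs. In bSCs they were 60.1 ± 5.58, 54.7 ± 19.0, 60.6 ± 27.1 and 20.4 ± 19.3 CPM on days 4, 6, 8 and 10. The libraries of day 10 stood at 20.4, 39.7 and 1.13 CPM, with a log2 fold change of -2.02 ± 0.80 against iSCs (edgeR, unadjusted p = 0.0169, adjusted p = 0.209), and 2.52% of genes were called there. Without the libraries of few genes it was -2.58, with an adjusted p of 0.0338, in a fit that called 5.69% of genes, while DESeq2 gave 0.0503 and a fit with no filter on low counts 0.261. Over days 4 to 10 Amotl2 differed from iSCs by -0.44 ± 0.52 in dSCs (adjusted p = 0.660) and -0.88 ± 0.51 in bSCs (adjusted p = 0.309).

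Between bSCs and dSCs of the single nerves, the mean difference of Amotl2 over days 4 to 10 was -0.44 ± 0.41 (adjusted p = 0.929). With the animal as a replicate block, in 10 pairs, it was -1.52 with an adjusted p of 0.0428, in a fit that called 6.41% of genes, against 0.112% without the block. Day 10 holds 1 of these pairs; on that day the block called Amotl2 and Yap1 lower, and 5.77% of all genes. In the block without that day, the mean difference was -0.14 (adjusted p = 0.889). Without the nearly identical libraries of day 4 it was -1.42 (adjusted p = 0.0849), and in the block with edgeR's filter -1.42 (adjusted p = 0.0881).

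Ankrd1, a cardiac ankyrin repeat protein and a standard YAP target, was near silent. It had 0 counts in all 4 iSC and all 4 dSC libraries of the pooled nerves, and in bSCs 23 counts (1.03 CPM) in replicate 1, 110 counts (5.13 CPM) in replicate 5 and 0 in the others. It did not pass the filter on low counts in the pooled nerves, and no fold is given. All 5 single-nerve iSC libraries were at 0. The dSC libraries of day 1 held 12, 10 and 1 counts (0.646, 0.678 and 0.0945 CPM) and those of day 2 held 0, 34 and 58 counts (0, 2.34 and 2.80 CPM). From day 4 on, Ankrd1 was at 0 in all but 2 injured libraries, a dSC library of day 10 with 2 counts and a bSC library of day 10 with 70 counts (5.88 CPM). A count of 3, used as an approximate upper limit where the count was 0, was worth 0.140 to 0.646 CPM in the single nerves.

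For the 9 members tested in the pooled nerves, the median log2 fold change was -0.34 in dSCs against iSCs, -0.94 in bSCs against iSCs and -0.54 in bSCs against dSCs, where the medians over all 13751 genes were -0.02, -0.16 and -0.07. In the same order, 5, 7 and 6 of the 9 had a value below 0. Besides Lats2, the members with an unadjusted p under 0.05 in bSCs against iSCs were Tead2, Tead4 and Amotl2, and in bSCs against dSCs Tead4. For the 6 members tested in the single nerves, the medians were 0.14 in dSCs and -0.03 in bSCs of days 4 to 10 against iSCs, -0.47 in dSCs of days 1 and 2, and -0.22 between bSCs and dSCs, against -0.07, -0.06, -0.05 and 0.05 over 7171 genes. Here edgeR and DESeq2 each called 0 of the 6 members in the averaged comparisons, where edgeR called 9.61%, 10.1%, 1.32% and 0.112% of genes, and 0 members had an unadjusted p under 0.05. On single days, edgeR and DESeq2 each called 0 in 36 member tests of dSCs against iSCs, 24 of bSCs against iSCs and 24 of bSCs against dSCs, and 2 had an unadjusted p under 0.05 (Amotl2 and Wwtr1 in bSCs of day 10 against iSCs). Day by day, from day 1 to day 10, edgeR called 0.153%, 1.00%, 4.74%, 1.62%, 0.711% and 0.683% of genes in dSCs against iSCs. From day 4 on it called 4.06%, 3.54%, 0.683% and 2.52% in bSCs against iSCs and 0%, 0.0139%, 0% and 0.0139% in bSCs against dSCs. A test of whether the bSC to dSC difference changed between days called 0 members and 0% of genes, and 0 members had an unadjusted p under 0.05. Comparisons with iSCs share the same iSC libraries.

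Of 23 Hippo kinases and regulators, such as the MST kinases, Sav1, the MOB1 adaptors and Nf2, 22 were tested in the pooled nerves. In dSCs against iSCs 0 were called, against 5.32% of all genes, with a median log2 fold change of 0.11. In bSCs against dSCs 0 were called, against 5.43%, with a median of -0.55. In bSCs against iSCs 2 were called, against 14.7%. Rassf1, a scaffold of the MST kinases, was higher, at 147 ± 16.6 against 72.4 ± 23.3 CPM (log2 fold change 1.02 ± 0.29, adjusted p = 0.0333). Frmd6, a FERM protein upstream of the kinases, was lower, at 94.1 ± 30.1 against 189 ± 28.5 CPM (-1.01 ± 0.27, adjusted p = 0.0259). Of these 23, 17 were tested in the single nerves and 0 called in any comparison, where 0% to 10.1% of all genes were called.

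VGLL proteins compete with YAP and TAZ for TEAD factors, and Vgll4 acts as a repressor. Of the 4, Vgll3 and Vgll4 had enough counts. Vgll3 was lower in pooled dSCs than in iSCs, at 40.9 ± 9.24 against 138 ± 91.2 CPM (-1.75 ± 0.42, adjusted p = 0.0304). In pooled bSCs it was at -0.89 (adjusted p = 0.179), and in the single nerves of days 4 to 10 at -0.66 in dSCs and -0.62 in bSCs (adjusted p = 0.484 and 0.526). Single-nerve Vgll4 was lower than in iSCs, at 138 ± 62.0 CPM (n = 5), in dSCs of days 1 and 2, at 52.8 ± 8.11 (n = 6; -1.40 ± 0.31, adjusted p = 0.0214), in dSCs of days 4 to 10, at 58.7 ± 16.1 (n = 12; -1.25 ± 0.26, adjusted p = 0.00278), and in bSCs of days 4 to 10, at 72.3 ± 26.8 (n = 12; -0.98 ± 0.26, adjusted p = 0.0161). In the pooled nerves Vgll4 was not called, with -0.60 in dSCs and -0.48 in bSCs against iSCs (adjusted p = 0.583 and 0.517), so that each gene was called in 1 experiment and not in the other. Markers of other cells moved along with single-nerve Vgll4. Of the 6 macrophage markers tested, 4 were called higher in dSCs of days 1 and 2, 6 in dSCs and 5 in bSCs of days 4 to 10, and the 8 of the list summed to 190 to 924 CPM in iSCs and 1882 to 12289 in dSCs of days 4 to 10. The 6 endothelial markers, 1 of which was called lower in each of these comparisons, summed to 1541 to 3701 CPM in iSCs and 242 to 1508 in dSCs of days 4 to 10. The 3 perineurial markers summed to 713 to 1974 and 94.0 to 643 CPM. Their part in the result was not tested.

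The target genes moved in both directions. Of 19 genes used as a signature of YAP and TAZ activity, 18 were tested in the pooled nerves and 4 were called in each comparison, where 5.32% of all genes were called in dSCs against iSCs, 14.7% in bSCs against iSCs and 5.43% in bSCs against dSCs. In dSCs against iSCs, Gadd45a, a growth arrest and DNA damage gene, rose from 17.1 ± 3.44 to 303 ± 81.3 CPM, Igfbp3, which binds insulin-like growth factors, from 19.9 ± 9.10 to 137 ± 50.9, and Myof, a membrane repair protein, from 18.5 ± 4.18 to 96.0 ± 41.6. Cyr61 fell from 548 ± 436 to 108 ± 28.2 CPM (-2.35 ± 0.48, adjusted p = 0.0142). Ctgf, also a standard target, was not called (0.28 ± 0.41, edgeR adjusted p = 0.863). In bSCs against iSCs, Igfbp3 rose to 220 ± 57.3 CPM, Tgfb2, a TGFβ ligand, rose from 17.7 ± 5.83 to 84.8 ± 47.4, Myof rose to 50.8 ± 17.9, and F3, the coagulation tissue factor, fell from 299 ± 123 to 35.8 ± 20.6. Their log2 fold changes were 3.47, 2.26, 1.46 and -3.06, with adjusted p between 0.000296 and 0.0215.

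Between the injured regions, the signature split evenly. Cyr61 was higher in bSCs than in dSCs, at 429 ± 129 against 108 ± 28.2 CPM (1.99 ± 0.48, adjusted p = 0.0303), and Tgfb2 was higher, at 84.8 against 22.7 ± 9.50 CPM (1.90 ± 0.48, adjusted p = 0.0369). Gadd45a was lower, at 23.2 ± 13.7 against 303 CPM (-3.71 ± 0.51, adjusted p = 0.00274), and F3 was lower, at 35.8 against 139 ± 58.6 CPM (-1.96 ± 0.47, adjusted p = 0.0310). The median log2 fold change of the 18 was 0.45 in dSCs and 0.09 in bSCs against iSCs, and -0.35 between bSCs and dSCs. Ctgf was not called between pooled bSCs and dSCs (0.49 ± 0.41, edgeR adjusted p = 0.562). Only 13 were tested in the single nerves, and F3 in bSCs of days 4 to 10 was the 1 called, lower than in iSCs. Of all genes tested, 10.1% were called in that comparison. Over those days Cyr61 was at -0.68 in dSCs against iSCs and 0.53 in bSCs against dSCs (edgeR adjusted p = 0.351 and 0.824). The 8 macrophage markers, 1 of which was called higher in pooled dSCs, stood at their highest where Gadd45a did, and their part in its level was not tested.

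Of 4 SC genes that YAP, TAZ and TEAD1 are known to drive in myelination, Egr2, Pmp22 and Itga6 fell in the pooled nerves. Pmp22, a compact myelin protein, went from 32546 ± 11321 CPM in iSCs to 672 ± 528 in dSCs and 848 ± 446 in bSCs (-5.60 and -5.26, adjusted p = 0.000516 and 0.000243). Egr2, the master regulator of myelination, went from 289 ± 122 to 26.8 ± 9.01 and 62.2 ± 23.6 CPM (-3.43 and -2.22, adjusted p = 0.000583 and 0.00200). Itga6, a laminin receptor subunit, went from 543 ± 228 to 158 ± 54.9 and 200.2 ± 49.1 CPM (-1.78 and -1.44, adjusted p = 0.0141 and 0.0173). Dag1 was not called, and none of the 4 differed between bSCs and dSCs past the threshold. In the single nerves of days 4 to 10, Pmp22 was the 1 of the 4 called, lower than in iSCs in both dSCs (-4.29, adjusted p = 1.10e-07) and bSCs (-3.79, adjusted p = 4.89e-07). Of all genes tested in these comparisons, 9.61% were called in dSCs and 10.1% in bSCs. There Egr2 was at -0.45 in dSCs and -0.04 in bSCs (adjusted p = 0.696 and 0.980), Itga6 at -1.001 and -0.95 (adjusted p = 0.0654 and 0.0810) and Dag1 at 0.77 and 0.92 (adjusted p = 0.146 and 0.0830). In the same pooled iSC and injured libraries, the levels of Yap1, Wwtr1 and Tead1 overlapped, and so did those of Itga6. How the levels of these regulators relate to the fall of the myelination genes was not tested.

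The genes most like each tested member over the 11 single-nerve group means, among the 7171 genes tested, are given as a description of these means. For Yap1 they were Eif4b (Pearson r = 0.956), Fbln7 (0.916) and Trim2 (0.909). For Wwtr1 they were Ric8 (0.844), Sh3bp5 (0.819) and Rell1 (0.812), and for Tead1 Lpcat1 (0.938), Edc4 (0.933) and Zfp740 (0.924). For Lats1 they were Lxn (0.897), Mef2a (0.886) and Zc3h15 (0.884), and for Lats2 Fzd1 (0.938), Tax1bp1 (0.905) and Cops2 (0.884). For Amotl2 they were Coq9 (0.967), Gnb5 (0.946) and Ildr2 (0.943). None of these 18 genes was on the pathway lists, which held few of the 7171 genes, so no conclusion is drawn from their absence.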

How the data were processed

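Per the labels, Schwann cells were sorted by tdTomato and libraries were made with Smart-seq2, which amplifies cDNA by PCR and does not keep strand. The authors aligned the reads with TopHat2 2.0.11 to mouse mm9, counted reads per gene with HTSeq, and deposited raw counts for each lane, without normalization. Here lanes were summed, and HTSeq's own categories and 92 ERCC spike-ins were set aside.

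In R 4.3.3, counts were scaled by TMM and tested with edgeR 4.0.16 (quasi-likelihood, two-sided, Benjamini-Hochberg over all genes) in 1 fit of the 12 pooled libraries (13751 genes passing edgeR's filter) and 1 of the 35 single-nerve libraries (7171 genes with at least 100 counts in 85% of libraries, a threshold taken from the study and applied here to all 35). CPM per kb used exon lengths of GENCODE vM1 (mm9). Fold changes carry standard errors, and their 95% intervals use the total degrees of freedom of edgeR's test, which are the residual plus the prior ones. On simulated counts with 200 genes changed 4-fold, the pooled bSC against dSC test recovered 45 and the averaged single-nerve test 177. Floors for counts of 0 cover counting error only.

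Groups came from the labels. Same-numbered libraries share an animal or pool by label, so the number was also fitted as a block. The deviations of such libraries from their group means correlated at -0.0143 on average in 10 pooled pairs and 0.155 in 10 single-nerve pairs. For 1 day 10 bSC library the labels disagree on the animal, so it entered no pair. The members, the gene lists and the tests were chosen with earlier results of these data known. Named genes were all members, the listed genes past the threshold (at most 4 per list and comparison, by smallest p) and the 3 genes most alike to each tested member. Ctgf and Dag1 were also given, without a call. Alternatives were DESeq2 1.42.0, its size factors, other filters, a lane covariate, fits of only the groups compared, the block, and leaving out each library. The rat cultures were not analysed here. Other Schwann cell markers are not reported here.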

Additional observations from a re-analysis of the deposited data

Results flagged for a closer look

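In groups of 4 or 5 libraries, 4 of 36 member and group combinations held a library far from the others by Dixon's test, in which the gap to the nearest library is divided by the whole range. The test's nominal rate is about 1 in 20 for normal, independent values, which these combinations, drawn from shared libraries, need not be. Wwtr1 was at 89.4 CPM in pooled iSC replicate 1, where the other iSC libraries lay between 51.9 and 52.4 CPM. Tead1 was at 182 CPM in pooled dSC replicate 1, against 26.1 to 51.8 CPM. Tead4 was at 2.81 CPM in pooled dSC replicate 3 and at 0 in the other dSC libraries. Amotl2 was at 187 CPM in pooled iSC replicate 2, against 139 to 141 CPM.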

How the results depend on the processing

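Of the summary results under alternatives other than leaving out a library, 75 stayed within 1.5 times the main count, 7 gained calls and 2 lost them. Members called in pooled dSCs against iSCs went from 0 to 1 with DESeq2 (Amotl2). In bSCs against iSCs they went from 1 to 2 with only the groups compared (Amotl2) and with DESeq2 (Tead2), and in bSCs against dSCs from 1 to 0 with only the groups compared and with the replicate block. In the single nerves the replicate block gave 1 member in the mean bSC to dSC difference (Amotl2) and 2 on single days (Amotl2 and Yap1, both lower on day 10, from 1 pair), and leaving out the libraries of fewest genes gave 1 dSC call (Tead2, day 6) and 1 bSC call (Amotl2, day 10) against iSCs. The block changed no other call. Leaving out 1 library at a time gave 0 to 1 members in pooled dSCs against iSCs (Amotl2, without dSC replicate 1), 1 to 2 in bSCs against iSCs (Tead2 without iSC replicate 5, Amotl2 without dSC replicate 1), 0 to 1 in bSCs against dSCs, and 0 to 0 in every single-nerve comparison.

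Some log2 fold changes turned sign, none of which passed the test in either fit. In the pooled nerves, Tead1 in dSCs against iSCs was -0.44 with the lane covariate, and Lats1 in bSCs against dSCs 0.013 with the replicate block. In the mean single-nerve bSC to dSC difference, Lats1 was -0.13 in the replicate block without day 10, and Lats2 0.053 in the block, 0.15 in the block with edgeR's filter and 0.033 in the block without the nearly identical libraries. Against iSCs without the libraries of fewest genes, Yap1 was -0.13, Wwtr1 0.022 and Lats1 -0.14 in dSCs of days 4 to 10, Yap1 -0.35 and Lats1 -0.0061 in bSCs of days 4 to 10, and Lats1 -0.61 in dSCs of days 1 and 2. Lats2 in dSCs of days 4 to 10 was 0.019 with no filter and 0.011 without the nearly identical libraries. The causes were not tested.

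Leaving out single libraries turned the sign within these ranges. In the pooled nerves, dSCs against iSCs gave -0.17 to 0.56 for Yap1, -0.033 to 0.47 for Wwtr1 and -0.99 to 0.36 for Tead1, bSCs against iSCs -0.42 to 0.076 for Yap1, and bSCs against dSCs -1.50 to 0.052 for Tead1 and -0.43 to 0.48 for Lats1. In the single nerves, the mean bSC to dSC difference was -0.067 to 0.29 for Lats1, and against iSCs the ranges were -0.68 to 0.022 for Amotl2 and -0.27 to 0.19 for Lats2 in dSCs of days 4 to 10, -0.33 to 0.41 for Yap1 and -0.43 to 0.058 for Lats2 in bSCs of days 4 to 10, and -0.16 to 0.73 for Lats1 in dSCs of days 1 and 2.

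With 4 libraries of pooled nerves per group, 4-fold changes were mostly missed on simulated counts in the bSC to dSC comparison (45 of 200 called). The simulation changed 200 of 13751 genes, while 746 were called in the data, so this recovery need not hold for the members. A member without a call in that comparison is not shown to be equal. The single-nerve filter left out 4 members, and Tead4 and Ankrd1 were too low for a fold.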
